A study of Mus musculus with 48 samples.

Results

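The 10 genes described here carry out the uptake, storage, export and sensing of cellular iron and the breakdown of haem: *Tfrc*, *Slc11a2*, *Trf*, *Fth1*, *Ftl1*, *Slc40a1*, *Ireb2*, *Aco1*, *Fbxl5* and *Hmox1*. They were taken by gene symbol from the 19601 protein-coding genes of the deposited batch-corrected tables, and all 10 were among the 14839 genes that passed edgeR's filter on low counts. The substantia nigra (SN) of 48 male C57BL/6J mice was profiled by bulk RNA sequencing, 12 mice in each of 4 groups. Mice received either preformed fibrils (PFF) of mouse α-synuclein, which seed its aggregation, or α-synuclein monomer as the control, by unilateral injection into the right striatum at 121 days of age, and breathed 21% or 11% O2. The paper's main protocol starts 11% O2 right after injection, whereas the design text deposited with the data places all mice in 21% O2 first and moves a part of them to 11% O2 midway. From injection to harvest of the SN 90 or 91 days passed, except for 98 days in monomer mouse 11 at 11% O2. The whole SN was taken, not the pars compacta in which the dopaminergic neurons lie, so each value mixes RNA of neurons, glia, vessels and blood, and fewer cells of a type cannot be told apart from less RNA per cell.

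The authors kept 42 of the 48 mice: 11 monomer and 12 PFF mice at 21% O2, and 9 monomer and 10 PFF mice at 11% O2. Between 12902996 and 17120921 counts lay on genes in these 42, and the shallowest of the 6 left-out mice had 3134594. The mice fell into 3 batches by their dates of birth, injection and harvest. The exception was monomer mouse 11 at 11% O2 in batch 3, with 98 days from injection to harvest against 91 in the other mice there. Batch 1 held all 4 groups, whereas batch 2 held no monomer mice at 11% O2 and batch 3 no monomer mice at 21% O2 among the mice labelled there, so the effect of O2 in monomer mice can be seen inside a batch in batch 1 alone. The dopaminergic marker *Th*, the rate-limiting enzyme of dopamine synthesis, was present in every group (mean of 571 to 647 TPM, single mice from 96.1 to 1079 TPM), with a spread between mice larger than any difference between groups. *Vegfa*, a textbook target of hypoxia-inducible factors, was higher at 11% O2 without overlap, at 235 ± 22.2 TPM (SD, n = 9) in monomer mice at 11% O2 against 127 ± 7.31 TPM (n = 11) in those at 21% O2.

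Iron enters most cells bound to transferrin (*Trf*), which is taken up by the transferrin receptor (*Tfrc*). It leaves the endosome through DMT1 (*Slc11a2*), is stored inside shells of heavy and light ferritin chains (*Fth1*, *Ftl1*), and leaves the cell through ferroportin (*Slc40a1*). When iron is scarce, the iron regulatory proteins IRP1 (*Aco1*) and IRP2 (*Ireb2*) bind hairpins called iron-responsive elements (IREs). An IRE in the 3′ UTR protects the *Tfrc* mRNA from decay, whereas an IRE in the 5′ UTR blocks translation of the ferritin and ferroportin mRNAs, a step that mRNA levels do not show. FBXL5, which needs iron and O2, marks IRP2 for degradation, and haem oxygenase 1 (*Hmox1*) frees iron from haem. The SN is known for its high iron content, and iron there is a long-standing interest in Parkinson's disease.

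The IREs are shown because the UTR in which an IRE lies sets how the iron regulatory proteins act on that mRNA. A hairpin with an unpaired C, an upper stem of 5 base pairs, the loop CAGTGN and at least 4 of 5 pairs in the lower stem was searched in the mature protein-coding transcripts of GENCODE vM21, strand by strand. It was found in 30 of 21901 genes (0.137%), among them 4 of the 10 iron genes. The sequences follow 5′ to 3′ on the strand of the gene, with the loop in capitals and GRCm38 positions.
Tfrc, 3′ UTR, chr16:32631219-32631247, plus strand: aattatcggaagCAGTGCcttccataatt
Tfrc, 3′ UTR, chr16:32631598-32631626, plus strand: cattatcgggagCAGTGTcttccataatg
Tfrc, 3′ UTR, chr16:32631663-32631691, plus strand: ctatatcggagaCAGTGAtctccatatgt
Tfrc, 3′ UTR, chr16:32631710-32631738, plus strand: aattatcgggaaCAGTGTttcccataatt
Slc40a1, 5′ UTR, chr1:45925465-45925493, minus strand: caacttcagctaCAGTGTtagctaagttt
Fth1, 5′ UTR, chr19:9982732-9982760, plus strand: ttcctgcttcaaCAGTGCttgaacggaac
Ftl1, 5′ UTR, chr7:45459779-45459807, minus strand: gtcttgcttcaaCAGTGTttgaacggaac
*Tfrc* alone of the 10 held more than 1 match, with 4 hairpins in its 3′ UTR, while the other 3 matches lay in 5′ UTRs. Only these letters were searched, and the lack of a match in the other 6 genes says nothing about their regulation.

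A stretch of the *Tfrc* promoter is shown because hypoxia-inducible factors are known to bind ACGTG or GCGTG and to raise *Tfrc* transcription. RefSeq windows of 300 bases that span a gene start (GRCm38.p6) matched 5 of the 10 genes. Either strand was searched, and ACGTG lay in 19.6% and GCGTG in 32.4% of 32851 such windows. Of the 5 genes, *Tfrc* was the only gene with ACGTG, while GCGTG lay in windows of *Tfrc*, *Fth1* and *Ftl1*. The ACGTG of *Tfrc* lay 26 bases before the gene start of GENCODE, and its 5 letters are in capitals. It spans the first RefSeq start of *Tfrc* (chr16:32608896).
Tfrc, promoter, chr16:32608882-32608910, plus strand: ctcggtaggtgtACGTGcggaaggaagtg
The match is a description of the sequence and not evidence that a factor was bound in these mice.

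The levels of the 10 genes spanned a wide range on the TPM scale, which corrects for transcript length. *Fth1* was highest, with a mean over the 4 groups of 1424 TPM, followed by *Trf* with 1274 TPM, and both were above 99.6% of the genes tested. *Ftl1* came next with 492 TPM. *Tfrc* followed with 70.7 TPM, then *Fbxl5* with 42.4, *Aco1* with 42.3, *Slc11a2* with 42 and *Ireb2* with 32.0 TPM. *Hmox1* had 17 TPM and *Slc40a1* was lowest with 6.45 TPM. *Fth1* exceeded *Trf* in 37 of the 42 mice, and *Fbxl5*, *Aco1* and *Slc11a2* did not separate: *Fbxl5* was above *Aco1* in 21 mice, and *Aco1* above *Slc11a2* in 22. Every other neighbouring pair kept its order in all 42 mice. The spread between mice of a group was small, with a coefficient of variation from 3.65% (*Slc11a2* in PFF mice at 11% O2) to 18% (*Slc40a1* in PFF mice at both O2 levels). Even the scarcest transcripts were well counted: the fewest counts in a mouse were 65 for *Hmox1* and 129 for *Slc40a1*. The plot of each gene's level by mouse shows these values.

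**Figure D1:**
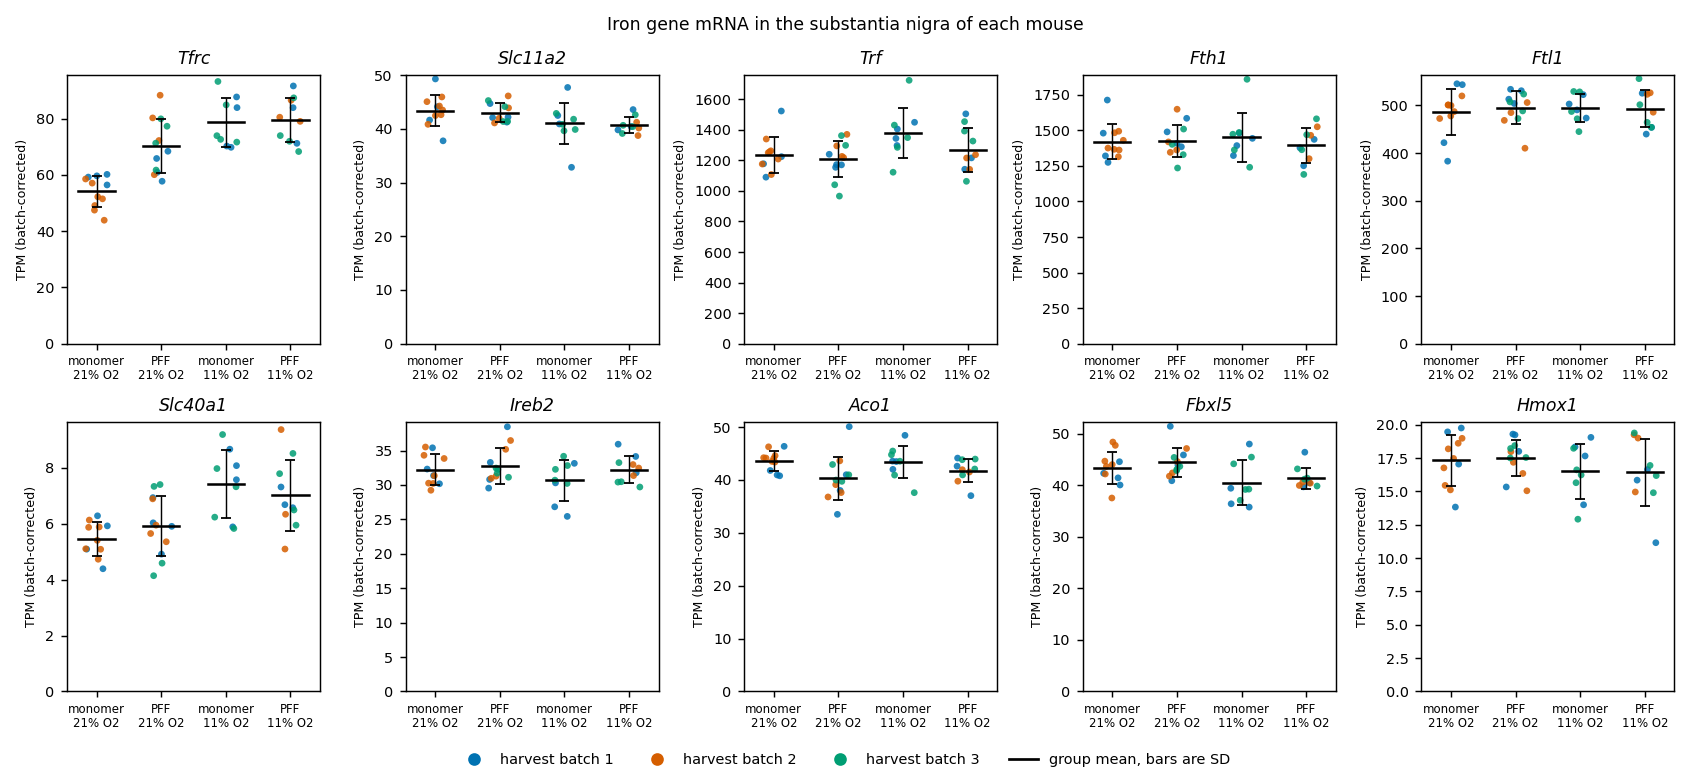
Batch-corrected TPM (vertical axis, from 0) of the 10 iron genes in each of the 42 mice, by group; dots are mice coloured by harvest batch, and the lines and bars are the group mean and SD. *Tfrc* rises from a mean of 54.1 TPM in monomer mice at 21% O2 to between 70.3 and 79.5 TPM in the other 3 groups, *Slc40a1* is higher at 11% than at 21% O2 in monomer mice (called in that contrast alone), and the other 8 genes overlap in all 4 groups.

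The first question was whether PFF changed iron genes at 21% O2. Only *Tfrc* did so by the criteria used throughout, a Benjamini–Hochberg adjusted p under 0.05 over all genes from edgeR's quasi-likelihood test together with an absolute log2 fold change above 0.25. *Tfrc* (ENSMUSG00000022797.16) lies at chr16:32608920-32632794 on the plus strand of GRCm38. It was 1 of 10 iron genes called, against 3.70% of all 14839 genes (2.29% higher and 1.41% lower). *Tfrc* was lowest at 43.9, median 56.4 and highest at 60.2 TPM in the 11 monomer mice at 21% O2. In the 12 PFF mice at 21% O2 it was lowest at 57.8, median 69.8 and highest at 88.3 TPM. The groups overlapped only at their edges: 10 of 12 PFF mice lay above the highest monomer mouse, and all 12 above the monomer median. The log2 fold change was 0.40 ± 0.067 (SE), a 1.32-fold higher level (95% interval of the log2 fold change 0.26 to 0.53, adjusted p = 0.000177), and *Tfrc* ranked at position 41 of 14839 genes by p.

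The size of the PFF effect on *Tfrc* differed between batches. Before batch correction, *Tfrc* in batch 1 was 57.1 ± 1.35 TPM (SD, n = 4) in monomer and 63.2 ± 3.96 TPM (n = 4) in PFF mice at 21% O2. In batch 2 the values were 44.2 ± 4.73 (n = 7) and 65.2 ± 11.0 TPM (n = 4). The direction was the same in both, but the log2 fold change was 0.17 in batch 1, where edgeR's quasi-likelihood test did not call it (adjusted p = 0.379), and 0.57 in batch 2, where it did (adjusted p = 0.0021). Batch 3 held no monomer mice at 21% O2 and gave no value. With batch as a covariate on the uncorrected counts of the 42 mice the log2 fold change was 0.43 (adjusted p = 0.000211), and leaving out each mouse in turn kept the call, with values from 0.36 to 0.42.

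Beside this result, the summed marker levels of other cell types overlapped between PFF and monomer mice at 21% O2. None of the 10 microglia markers and none of the 9 dopaminergic neuron markers was called, though all 10 microglia markers had positive log2 fold changes (median 0.13), with microglial sums of 1135 to 2093 TPM in monomer and 1178 to 2280 TPM in PFF mice. Of the 8 endothelial markers 1 was called higher, of the 10 oligodendrocyte markers 1 higher, and of the 4 oligodendrocyte precursor markers 1 lower, while the other 3 had positive log2 fold changes (median of the 4, 0.07). The precursor sum was 93.6 to 132.6 TPM in monomer and 86.4 to 124.2 TPM in PFF mice. The part of these in the *Tfrc* result was not tested.

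The other 9 genes stayed within narrow limits at 21% O2, with log2 fold changes for PFF from −0.10 (*Aco1*) to 0.14 (*Slc40a1*). *Aco1*, which encodes the cytosolic aconitase that doubles as IRP1, was nearest to a call among them. It was 43.6 ± 1.87 TPM in monomer and 40.3 ± 4.13 TPM in PFF mice (SD, n = 11 and 12), a log2 fold change of −0.10 ± 0.041 (SE, p = 0.021 and adjusted p = 0.139, edgeR quasi-likelihood). The ferritin transcripts differed little: *Fth1* had 1420 ± 122 TPM in monomer and 1427 ± 115 TPM in PFF mice, with a 95% interval of the log2 fold change from −0.09 to 0.14. *Ftl1* had 487 ± 48.6 and 495 ± 34.2 TPM, with an interval from −0.06 to 0.14. *Slc40a1*, the exporter, had 5.44 ± 0.614 and 5.92 ± 1.07 TPM, and its interval from −0.06 to 0.34 was the widest. The median log2 fold change was 0.04 over the 10 genes and 0.00 over all genes tested.

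The same contrast at 11% O2 gave no call among the 10 iron genes, nor among any of the 14839 genes (0%) with edgeR, while DESeq2 called 1 gene. In edgeR 581 genes (3.92%) had an unadjusted p under 0.05, no more than that threshold allows by chance. *Tfrc* was lowest at 69.8, median 74.0 and highest at 93.2 TPM in the 9 monomer mice at 11% O2. It was lowest at 68.3, median 79.8 and highest at 91.6 TPM in the 10 PFF mice at 11% O2. These ranges nearly coincide, and the log2 fold change was 0.03 ± 0.073 (SE, 95% interval −0.12 to 0.18). It was 0.07 inside batch 1 and −0.07 inside batch 3. Over all 10 genes the log2 fold changes ran from −0.10 (*Trf*) to 0.09 (*Ireb2*), and no 95% interval reached beyond −0.28 or 0.19.

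Whether low O2 itself changed iron genes was asked first in monomer mice, where *Tfrc* and *Slc40a1* rose. They were 2 of 10 genes called, both higher, against 7.23% of all genes (4.68% higher and 2.55% lower). All 9 monomer mice kept at 11% O2 had more *Tfrc* (69.8 to 93.2 TPM) than any of the 11 at 21% O2 (43.9 to 60.2 TPM). This was the only complete separation among the 10 genes and 4 comparisons. *Vegfa*, outside the 10, also separated completely in this contrast. The share of such genes over all genes was not counted, so the separation does not set *Tfrc* apart from other genes. Whether the *Tfrc* separation holds with the left-out mice cannot be told, since they have no batch-corrected value. Before batch correction, left-out monomer mouse 9 at 11% O2 in batch 3 had 56.6 TPM. That was below monomer mouse 1 at 21% O2 with 58.0 TPM, but this mouse was in batch 1. The log2 fold change was 0.54 ± 0.072 (SE), a 1.46-fold higher level, with a 95% interval from 0.40 to 0.69 (edgeR's quasi-likelihood test, adjusted p = 1.19e-06), at position 21 of 14839 by p. Inside batch 1, *Tfrc* rose from 57.1 ± 1.35 to 77.5 ± 7.41 TPM (SD, n = 4 and 4), a log2 fold change of 0.44 (adjusted p = 0.0129). Batches 2 and 3 each held monomer mice at only 1 O2 level, so the pooled value rests partly on the authors' batch correction.

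*Slc40a1* (ENSMUSG00000025993.10, chr1:45908068-45926523, minus strand), the known exporter of iron from cells, was lowest at 4.39, median 5.41 and highest at 6.28 TPM in monomer mice at 21% O2. At 11% O2 it was lowest at 5.83, median 7.57 and highest at 9.19 TPM. The groups overlapped, with 6 of 9 mice at 11% O2 above the highest mouse at 21% O2. The log2 fold change was 0.45 ± 0.103 (SE), a 1.37-fold higher level (95% interval 0.24 to 0.66, adjusted p = 0.00261 by edgeR's quasi-likelihood test). Inside batch 1 the change was as large, 0.50 on the log2 scale, from 4.38 ± 0.876 to 6.21 ± 1.28 TPM (SD, n = 4 and 4), but was not called in those 8 mice (adjusted p = 0.134).

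Vessel and blood markers moved in the same contrast as *Slc40a1*. In monomer mice at 11% against 21% O2, 7 of 8 endothelial markers were called higher with a median log2 fold change of 0.52, as were all 5 pericyte markers (median 0.58) and all 5 red cell markers tested (median 1.32). The summed endothelial level was 290.5 to 401.7 TPM at 21% and 380.8 to 655.7 TPM at 11% O2. The summed pericyte level was 184.9 to 307.3 and 245.0 to 568.1 TPM. The red cell sum was 514 to 1405 and 1058 to 5797 TPM, and no marker in these lists was at 0 throughout a group. None of the 10 microglia markers was called, though all 10 had positive log2 fold changes (median 0.16), with sums of 1135 to 2093 and 1363 to 2238 TPM. The part of the vessel and blood markers in the rise of *Slc40a1* and *Tfrc* was not tested.

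Of the remaining 8 genes in monomer mice, *Trf* was the only gene with an unadjusted p under 0.05. *Trf*, made in the brain mainly by oligodendrocytes, had 1238 ± 118 TPM at 21% and 1378 ± 162.3 TPM at 11% O2 (SD, n = 11 and 9). Its log2 fold change was 0.16 ± 0.067 (SE, edgeR quasi-likelihood p = 0.0212, adjusted p = 0.106). In the same contrast 3 of 10 oligodendrocyte markers were called higher (median 0.16), with sums of 9623 to 13238 TPM at 21% and 9975 to 15343 TPM at 11% O2. *Fth1* and *Ftl1* differed by 0.04 and 0.03 on the log2 scale. *Hmox1*, induced in many tissues by haem and oxidative stress, had 17.3 ± 1.92 and 16.5 ± 2.07 TPM, with a 95% interval of the log2 fold change from −0.22 to 0.09. *Fbxl5* (43.3 ± 3.15 against 40.5 ± 4.32 TPM) and *Slc11a2* (43.4 ± 2.97 against 41.0 ± 3.89 TPM) had log2 fold changes of −0.09 and −0.08, with adjusted p of 0.199 and 0.188.

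**Figure D2:**
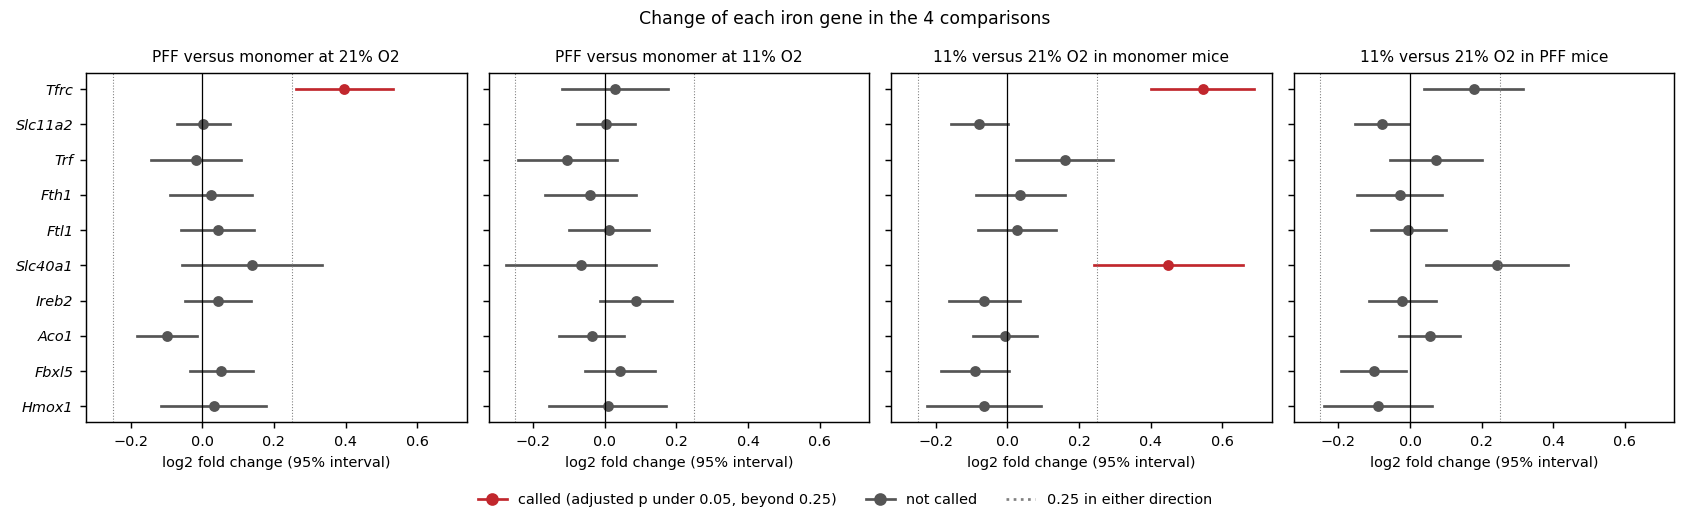
Log2 fold change (horizontal axis) of each iron gene in the 4 comparisons, from edgeR on the batch-corrected counts of 42 mice; points are estimates, lines 95% intervals, dotted lines mark 0.25, and red marks the called values. The called values are *Tfrc* for PFF at 21% O2 (0.40), and *Tfrc* (0.54) and *Slc40a1* (0.45) for 11% O2 in monomer mice.

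In PFF mice, 11% against 21% O2 gave no call among the 10 iron genes, against 0.580% of all genes (0.438% higher and 0.142% lower). *Tfrc* ran from 57.8 to 88.3 TPM (median 69.8) in the 12 PFF mice at 21% O2 and from 68.3 to 91.6 TPM (median 79.8) in the 10 at 11% O2. Of the latter, 9 lay above the 21% O2 median and 1 above the 21% O2 maximum. The log2 fold change was 0.18 ± 0.068 (SE, 95% interval 0.04 to 0.31, p = 0.0127, adjusted p = 0.306 by edgeR's quasi-likelihood test), and it was 0.34, 0.15 and 0.03 inside batches 1, 2 and 3. *Slc40a1* was lowest at 4.14, median 5.93 and highest at 7.40 TPM at 21% O2, and lowest at 5.09, median 6.63 and highest at 9.37 TPM at 11% O2. Its log2 fold change of 0.24 ± 0.098 (SE) was positive in each batch (0.18, 0.24 and 0.28) and had an adjusted p of 0.342. In this contrast 2 of 8 endothelial markers (median 0.32), 2 of 5 pericyte markers (median 0.34) and none of the 5 red cell markers tested were called higher, though all 5 red cell markers had positive log2 fold changes (median 0.79). The endothelial sum was 254.5 to 440.5 TPM at 21% and 394.3 to 523.5 TPM at 11% O2. *Fbxl5* and *Slc11a2*, at −0.10 and −0.08 on the log2 scale, had unadjusted p of 0.0287 and 0.0446 and adjusted p of 0.409 and 0.448.

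The plot of *Tfrc* and *Slc40a1* by batch shows which groups each batch holds.

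**Figure D3:**
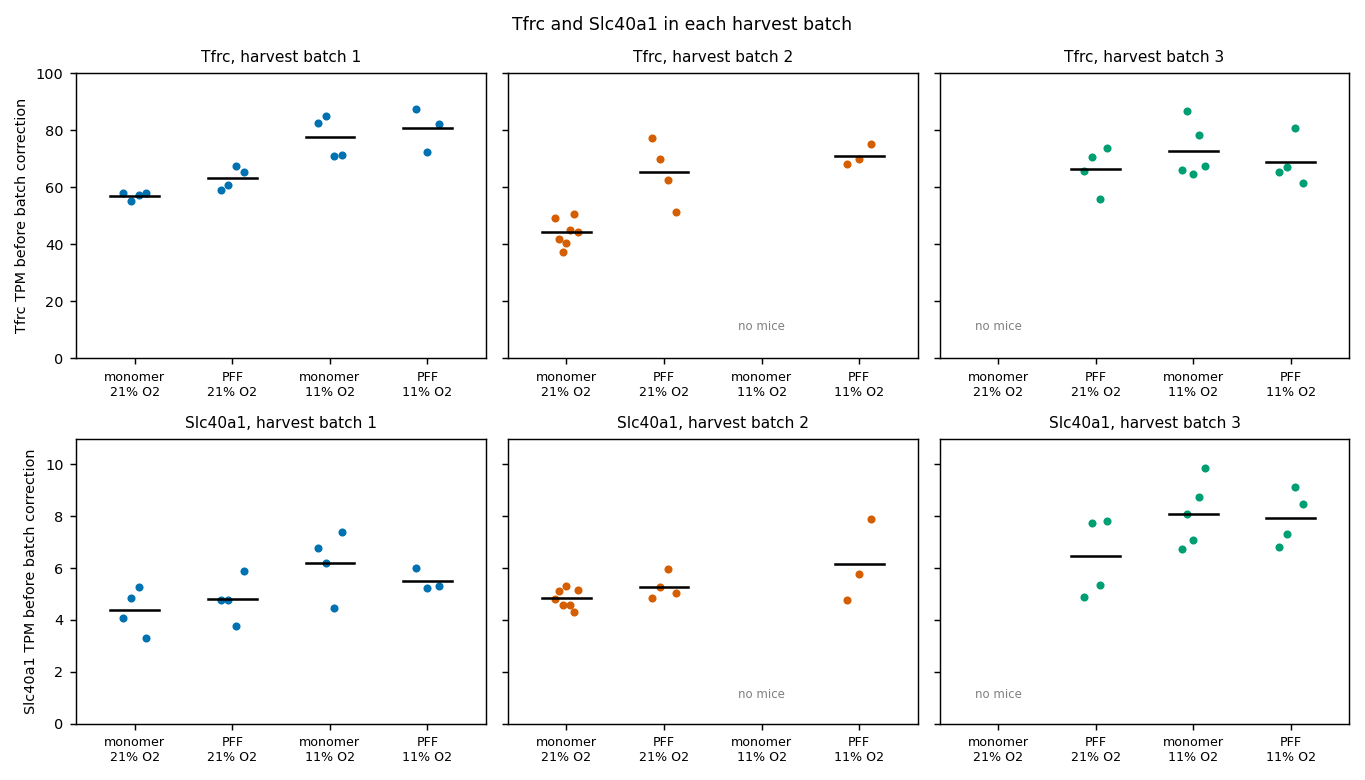
TPM before batch correction (vertical axis, from 0) of *Tfrc* (top) and *Slc40a1* (bottom) in the 42 mice, by group, with a panel for each harvest batch; dots are mice and lines are means. The step in *Tfrc* from monomer to PFF mice at 21% O2 is from 57.1 to 63.2 TPM in batch 1 and from 44.2 to 65.2 TPM in batch 2, and the groups marked "no mice" are missing from a batch.

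The interaction of PFF and O2, the log2 fold change for PFF at 11% O2 minus that at 21% O2, tests whether the PFF effect depended on O2. It was called for *Tfrc*, 1 of 10 genes, against 2.14% of all genes (1.10% positive and 1.04% negative). The difference was −0.37 ± 0.099 on the log2 scale (SE, 95% interval −0.57 to −0.17, edgeR quasi-likelihood adjusted p = 0.0345). *Tfrc* ranked at position 258 by p. The call lay near the threshold. It was lost in 11 of the 42 fits that left out a single mouse (adjusted p of 0.0508 to 0.064, log2 values of −0.36 to −0.33). In batch 1, the only batch with all 4 groups, the interaction was −0.10 with an adjusted p of 0.737. With batch as a covariate on the uncorrected counts it was −0.41 (adjusted p = 0.0341). With the replicate number as a block it was −0.33 and was not called (edgeR quasi-likelihood adjusted p = 0.10). For *Slc40a1* the interaction was −0.21 ± 0.143 (SE, adjusted p = 0.526), so a different response of *Slc40a1* to O2 in monomer and PFF mice was not shown. The other 8 genes had interactions between −0.09 and 0.06.

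Across the 4 group comparisons, the 8 genes never called, *Slc11a2*, *Trf*, *Fth1*, *Ftl1*, *Ireb2*, *Aco1*, *Fbxl5* and *Hmox1*, gave 32 log2 fold changes from −0.10 to 0.16. The 95% interval lay inside 0.25 in either direction for 31 of these 32, the exception being *Trf* in monomer mice at 11% O2 with an upper bound of 0.29. For the sensors, *Ireb2* had 32.2 ± 2.25, 32.8 ± 2.63, 30.7 ± 2.92 and 32.2 ± 1.91 TPM (SD) in monomer and PFF mice at 21% and monomer and PFF mice at 11% O2, and its 4 groups overlapped. *Fbxl5* had 44.4 ± 2.83 TPM in PFF mice at 21% and 41.3 ± 2.06 TPM in PFF mice at 11% O2. *Hmox1* had 17.5 ± 1.36 and 16.4 ± 2.50 TPM in the same groups, again with overlap.

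Copies or overlapping genes can affect the counts of 5 of the 10 genes, since the authors counted primary alignments without strand. *Ftl1* has 7 near-identical copies, whose counts added up to 2.55% of its own, led by *Ftl1-ps1* (1.43%, 99.6% identical). *Fth1* has 1 such copy, *Gm6977*, with 0.085% of its counts. Exons of *Trf* overlap *Gm20425* on the same strand over 2108 bases, those of *Slc11a2* overlap *Gm5475* over 402 bases and those of *Fbxl5* overlap *Bst1* over 98 bases. *Gm5475* and *Bst1* had 0.985% and 0.427% of the counts of *Slc11a2* and *Fbxl5*. Exons of *Ftl1* also overlap *Gm10252* over 355 bases (0.0488% of the *Ftl1* counts) and *Gm22133* over 109 bases (0 counts). These counts do not measure how many reads an overlap took from or added to a gene. No counts were available for *Gm20425*, so its share beside *Trf* is not known. The overlaps are those of GENCODE vM21, whereas the authors counted on vM24.

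Between mice of the same group, the iron genes moved with the markers of different cell types. Pearson's r and Spearman's rho were computed for 110 pairs of an iron gene and a marker list over the 42 mice, on log2 CPM with group means removed, with 100000 permutations of mice within groups and Benjamini–Hochberg adjustment over the 110 pairs. The adjusted p of r was under 0.05 for 29 pairs, 19 positive and 10 negative. *Trf* followed the oligodendrocyte markers most closely (r = 0.95, rho = 0.93, permutation p = 1e-05, the smallest that 100000 permutations give, adjusted p = 0.000137). Leaving out the 2 mice farthest from the median marker score gave r = 0.94, and within batches r was 0.95, 0.93 and 0.95. *Fth1* also followed oligodendrocyte markers (r = 0.76, rho = 0.64, adjusted permutation p = 0.000137, r = 0.69 without the 2 mice, and 0.72, 0.67 and 0.91 within batches). The light chain *Ftl1* followed astrocyte markers (r = 0.81, rho = 0.74, adjusted permutation p = 0.000137, r = 0.70 without the 2 mice, and 0.87, 0.90 and 0.87 within batches) and microglia markers (r = 0.73, rho = 0.72, adjusted permutation p = 0.000137, r = 0.63 without the 2 mice, and 0.87, 0.77 and 0.74 within batches).

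*Slc40a1* followed both endothelial markers (r = 0.71, rho = 0.71) and microglia markers (r = 0.71, rho = 0.74), each with an adjusted permutation p of 0.000137. Without the 2 outermost mice r was 0.65 and 0.71. Within batches 1, 2 and 3, r was 0.68, 0.64 and 0.92 for endothelial and 0.88, 0.74 and 0.73 for microglia markers. *Slc11a2* ran opposite to astrocyte markers (r = −0.63, rho = −0.74, adjusted permutation p = 0.000244, r = −0.57 without the 2 mice, and −0.72, −0.83 and −0.54 within batches). *Tfrc* passed for oligodendrocyte precursor markers alone (r = −0.49, rho = −0.50, adjusted permutation p = 0.00666, r = −0.46 without the 2 mice, and −0.21, −0.47 and −0.53 within batches). Its r with endothelial markers was 0.21 (adjusted permutation p = 0.423), but 0.41 with group and batch means removed from the uncorrected counts, and 0.40, −0.12 and 0.73 within batches. With microglia markers its r was −0.08 (adjusted permutation p = 0.769). The unadjusted permutation p of r was 0.00103 for *Tfrc*, 2e-05 for *Slc11a2* and 1e-05 for the other 6 pairs named, and rho passed for all 8, with adjusted permutation p of 0.000157 to 0.00602. These 8 are a part of the 29 pairs that passed. *Slc40a1* also passed with pericyte (r = 0.64), leptomeningeal fibroblast (0.59) and astrocyte (0.54) markers, and negatively with dopaminergic neuron (−0.48) and neuron (−0.43) markers. *Trf*, *Ftl1*, *Fth1*, *Aco1* and *Slc11a2* passed with oligodendrocyte precursor markers (0.67, 0.63, 0.46, 0.45 and −0.42). *Slc11a2* and *Trf* passed with microglia markers (−0.59 and 0.42), and *Trf* and *Fth1* with astrocyte markers (0.56 and 0.54). *Ftl1* passed with oligodendrocyte (0.49), red cell (0.40) and pericyte (0.39) markers, and negatively with dopaminergic neuron markers (−0.46). With neuron markers *Trf*, *Ftl1* and *Fth1* passed negatively (−0.45, −0.44 and −0.44). *Ireb2*, *Fbxl5* and *Hmox1* passed with no list. These lists share mice and libraries, and the marker scores are themselves related, so a high r names no cell of origin.

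**Figure D4:**
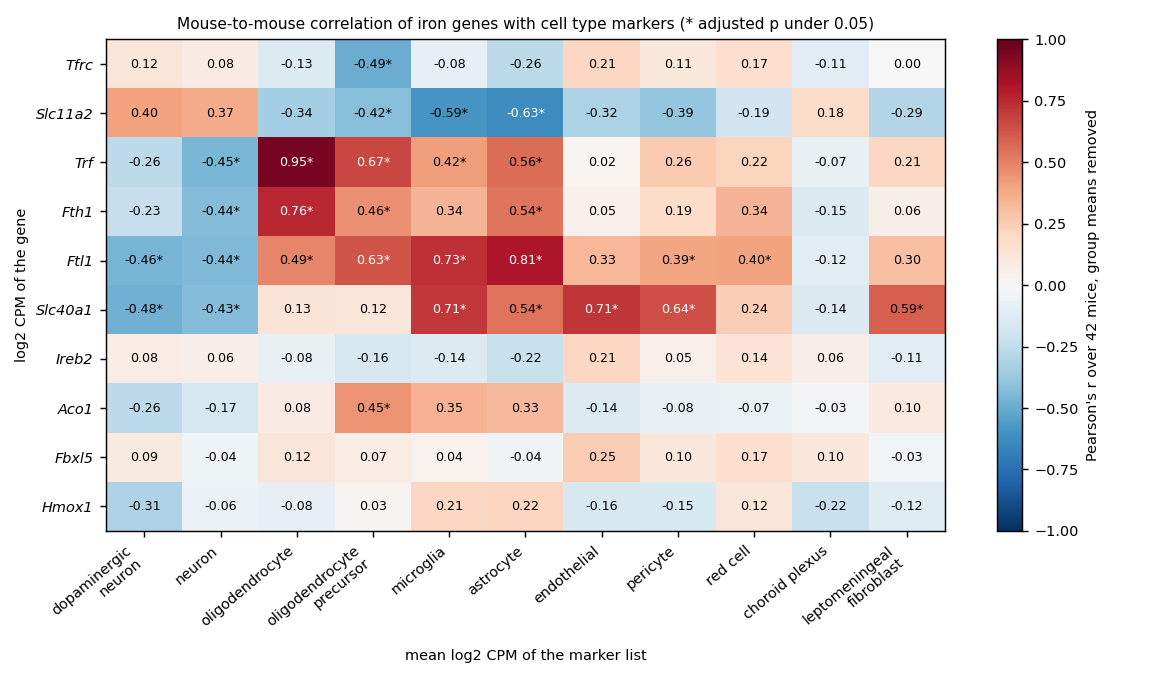
Pearson's r over the 42 mice, with group means removed, between log2 CPM of each iron gene (rows) and the mean log2 CPM of each marker list (columns); asterisks mark an adjusted permutation p under 0.05. The darkest red cell is *Trf* with oligodendrocyte markers (0.95), *Slc40a1* is red with microglia, endothelial and pericyte markers, and the rows of *Ireb2*, *Fbxl5* and *Hmox1* are pale.

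Among themselves, 8 of 45 pairs of iron genes had an adjusted permutation p under 0.05 for r, 6 positive and 2 negative. *Trf* and *Fth1* had r = 0.76 (rho = 0.66, adjusted permutation p = 0.00045, r = 0.67 without the 2 outermost mice, and 0.69, 0.80 and 0.90 within batches). The ferritin chains *Fth1* and *Ftl1* had r = 0.56 (rho = 0.57, adjusted permutation p = 0.0018, r = 0.51 without the 2 mice, and 0.48, 0.78 and 0.72 within batches). *Ireb2* and *Fbxl5*, the sensor and the adaptor that marks it for degradation, had r = 0.61 (rho = 0.51, adjusted permutation p = 0.00105, r = 0.52 without the 2 mice, and 0.56, 0.81 and 0.85 within batches). *Tfrc* and *Ireb2* had r = 0.48 (rho = 0.50, adjusted permutation p = 0.0126, r = 0.43 without the 2 mice, and 0.44, 0.61 and 0.90 within batches). *Slc11a2* ran opposite to *Ftl1* (r = −0.57, rho = −0.66, adjusted permutation p = 0.00045, r = −0.69 without the 2 mice) and to *Slc40a1* (r = −0.51, rho = −0.54, adjusted permutation p = 0.0018, r = −0.46 without the 2 mice), the latter with r = −0.08 within batch 3. The other two pairs were *Trf* with *Ftl1* (r = 0.53, rho = 0.53) and *Ftl1* with *Aco1* (r = 0.43, rho = 0.43, r = 0.32 without the 2 mice). Over the 8 pairs the unadjusted permutation p of r was 1e-05 to 0.00313, and the adjusted p of rho 0.00045 to 0.0213.

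Of all 14834 genes compared, the 5 whose log2 CPM was most like that of *Tfrc* over the 42 mice, with group means removed, were *Uri1* (r = 0.81), *Luc7l2* (0.76), *Cd46* (0.76), *Rbm26* (0.75) and *Arglu1* (0.75). With both group and batch means removed from the uncorrected counts, these values were 0.79, 0.81, 0.74, 0.81 and 0.79. *Cd46* was also called for PFF at 21% O2 (log2 fold change 0.47) and *Uri1* was not (0.13). This ranking is a description of these mice.

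Few further iron genes outside the 10 were called. Lists of uptake, ferritin turnover, haem, hepcidin and BMP signalling, mitochondrial iron and other IRE mRNAs had 83 genes in the tables, of which 75 passed the filter. For PFF at 21% O2, 3 of 75 were called, all higher (4.00%, against 3.70% of all genes). They were *Id1* (log2 fold change 0.43 ± 0.114, SE), a target gene of BMP signalling, *Hamp2* (0.46 ± 0.144), a hepcidin gene of the mouse, and *Hfe* (0.26 ± 0.078), a partner of the transferrin receptor. *Hfe* had 8.17 to 12.3 TPM in monomer and 9.91 to 14.9 TPM in PFF mice at 21% O2, and its log2 fold change was 0.26 in both batch 1 and batch 2. In the same batches it was 0.46 and 0.28 for *Id1*, and 0.12 and 0.73 for *Hamp2*, and none of the 3 was called inside a batch. With batch as a covariate in all 48 mice none of the 3 was called (edgeR quasi-likelihood adjusted p = 0.171 for *Id1*, 0.133 for *Hamp2* and 0.224 for *Hfe*). In the 42 mice kept, the same fit with the covariate called all 3 (edgeR quasi-likelihood adjusted p = 0.0129 for *Id1*, 0.0367 for *Hamp2* and 0.0497 for *Hfe*). *Hamp2* rested on few reads, with a median of 15 counts in monomer and 18 in PFF mice, and is close in sequence to *Hamp*, so its counts are uncertain.

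For 11% O2 in monomer mice 1 of 75 was called (1.33%, against 7.23% of all genes). It was *Alas2*, the erythroid enzyme that starts haem synthesis, with a log2 fold change of 1.68 ± 0.381 (SE). It is also in the red cell list, whose other tested genes rose in the same contrast, and it was 1.26 to 6.80 TPM at 21% and 3.74 to 38.6 TPM at 11% O2. Inside batch 1 it was 0.68 and not called (edgeR quasi-likelihood adjusted p = 0.281), nor was it called at 1.37 with batch as a covariate in all 48 mice (adjusted p = 0.176). With the covariate in the 42 mice kept, *Alas2* was called at 1.45 (edgeR quasi-likelihood adjusted p = 0.0154). For 11% O2 in PFF mice 1 of 75 was called (1.33%, against 0.58% of all genes). It was *Smad7*, an inhibitor of TGF-β and BMP signalling, with a log2 fold change of 0.35 ± 0.065 (SE). Within batches it was 0.30, 0.29 and 0.48 and was not called. With batch as a covariate *Smad7* was called at 0.36 in the 42 mice kept and at 0.37 in all 48 (edgeR quasi-likelihood adjusted p = 0.00139 and 0.00061). *Smad7* was 22.8 to 34.1 TPM (median 25.6) in PFF mice at 21% and 25.1 to 39.1 TPM (median 34.8) at 11% O2. None of the 75 was called for PFF at 11% O2 or for the interaction, against 0% and 2.14% of all genes. None of the 26 genes of mitochondrial import and iron-sulfur clusters was called in any of the 5 tests. Over all genes the share called in these tests was 0% to 7.23%.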

How the data were processed

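Paired-end libraries of poly(A) RNA from the SN were, per the paper's methods and the submitters' processing notes, cleared of ribosomal reads and aligned to mm10 with STAR 2.7.5a. Duplicate reads were then removed with Picard 2.21.9. The authors counted primary alignments per gene of GENCODE vM24 with featureCounts 2.0.1 without a strand option and deposited counts, whole numbers without normalization, and TPM for 55385 genes in 48 mice. The authors then left out 6 mice after principal components analysis, applied ComBat-seq to the other 42, and deposited the counts after batch correction, with TPM computed from them, for 19601 genes that code for protein.

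A single edgeR fit of the 4 groups to the corrected counts (version 4.0.16, R 4.3.3), with TMM, filterByExpr and no batch term, gave the quasi-likelihood tests. The authors' own test used DESeq2. Values within a batch and the alternatives with batch as a covariate used the uncorrected counts. Standard errors are the log2 fold change over the square root of F. Intervals cover sampling and mouse-to-mouse spread, not the error of the batch correction. Each mouse gave 1 SN. Positions, IREs and exon overlaps came from GENCODE vM21 on GRCm38, promoter windows from RefSeq. The fits were tested on simulated data. Alternatives were DESeq2 1.42.0, its size factors, no filter, batch as a covariate, fits inside single batches, a block for the replicate number, fits of the compared groups only, and limma 3.58.1 on log2 TPM after adding 1 or 0.1, with and without a filter on mean TPM. Each batch with all mice deposited was added after seeing the data.

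The 10 genes, the gene lists and the tests were chosen with earlier results of these data known. Named beside the 10 were the called genes of the further iron lists, at most 8 for each comparison, and the 5 genes most like *Tfrc*.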

Additional observations from a re-analysis of the deposited data

Results flagged for a closer look

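For *Tfrc*, the effect of PFF differed between O2 levels by the interaction term of edgeR's quasi-likelihood test, at −0.37 on the log2 scale (adjusted p = 0.0345). The PFF effect was 0.40 at 21% O2 and 0.03 at 11% O2. Inside batch 1, which held all 4 groups, the interaction was −0.10 and not called (edgeR quasi-likelihood adjusted p = 0.737). The call was also lost in 11 of the 42 fits that left out a single mouse. It was lost as well with the replicate number as a block (edgeR quasi-likelihood adjusted p = 0.10).

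Each of the 10 genes was examined in the groups of 9 and 10 mice for a mouse far from the others, 20 sets of values in all. In 2 of the 20 the gap to the nearest mouse passed Dixon's 95% critical value, which chance exceeds in about 1 of 20. *Fth1* in monomer mouse 7 at 11% O2 was 1859 TPM, with the next mouse at 1485 TPM. *Fbxl5* in PFF mouse 1 at 11% O2 was 46.4 TPM, with the next mouse at 43.2 TPM. Neither gene was called in a comparison.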

How the results depend on the processing

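Over 59 alternative settings, 42 of which left out 1 mouse each, 2820 log2 fold changes were recomputed for the 10 genes. Of these, 2800 kept their side of the threshold, 20 lost a call, none gained a call, and no called value changed sign. Among values never called, 149 of 2599 changed sign. For PFF at 21% O2 the count of 1 iron gene fell to 0 in batch 1 alone and in batch 1 with all mice deposited (*Tfrc* 0.17 in both). For 11% O2 in monomer mice the count of 2 fell to 1 (*Tfrc*) in batch 1 alone, where *Slc40a1* was 0.50 (adjusted p = 0.134), and to 0 in batch 1 with all mice deposited, where edgeR's quasi-likelihood test gave *Tfrc* 0.44 (adjusted p = 0.0641). These fits hold fewer mice. For the interaction the count of 1 fell to 0 in batch 1 alone (*Tfrc* −0.10), in batch 1 with all mice deposited (−0.17), and with limma on log2(TPM + 1) without a filter (−0.35, adjusted p = 0.0598). The cause was not tested. Leaving out a mouse gave 0 to 1 for the interaction, with 31 of 42 fits keeping *Tfrc*. The 11 mice whose absence ended the call were replicates 7 and 8 of the monomer and 10 and 12 of the PFF mice at 21% O2, and replicates 1, 2 and 6 of the monomer and 3, 9, 10 and 12 of the PFF mice at 11% O2. The other counts did not change when a mouse was left out.

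With the replicate number as a block, the count for the interaction was 0 (*Tfrc* −0.33, edgeR quasi-likelihood adjusted p = 0.10), while the counts for the other comparisons were as without it. The paper's methods state that mice were matched in pairs, but the labels used here do not tie the numbers to such pairs. Same-numbered mice of 2 groups correlated with a median r from −0.20 to 0.06. The r was over 0.1 in 4 of 11 pairs for PFF at 21% O2, 1 of 7 for PFF at 11% O2, 0 of 8 for 11% O2 in monomer mice and 5 of 10 in PFF mice (highest 0.39), and in no comparison for every pair. In all comparisons but the last, some pairs lay in different batches.

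Counts over all genes moved more. For 11% O2 in monomer mice 1073 genes were called, but 657 and 749 with batch as a covariate in 42 and 48 mice, and 297 in batch 1 alone. For the interaction 318 became 152 with the covariate in 48 mice and 11 in batch 1 alone, and for PFF at 21% O2 549 became 9 in batch 1 alone and 580 in batch 2 alone (484 there with all mice deposited). For 11% O2 in PFF mice 86 became 6, 7 and 2 in batches 1, 2 and 3 alone. By adjusted p alone the counts were 1127 for PFF at 21% O2 and 1961 for 11% O2 in monomer mice. The median change of all genes stayed between −0.02 and 0.01 under every setting. Depth limits *Hmox1* and *Slc40a1* most among the 10, with 65 to 135 and 129 to 341 counts in a mouse. *Tfrc* in the 6 mice the authors left out was 48.4 TPM in the shallow PFF mouse at 11% O2 and 69.7 TPM in the other, 39.9 TPM in the monomer mouse at 21% O2, and 69.9, 56.6 and 65.3 TPM in the monomer mice at 11% O2, before batch correction.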
